A study of Mus musculus with 9 samples.

Results

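The enzymes that make and break down cyclic AMP and cyclic GMP, and the kinase that cyclic AMP activates, were examined in mouse kidneys that lacked Pkd2, the gene of the calcium-permeable channel polycystin-2, alone or together with Ift88. They were taken by symbol, as every gene named as an adenylyl cyclase (Adcy), a phosphodiesterase (Pde followed by a digit and a letter), a protein kinase A regulatory subunit (Prkar), a catalytic subunit (Prkaca, Prkacb) or an inhibitor peptide (Pkia, Pkib, Pkig). This gave 44 of 22161 genes: 10 adenylyl cyclases, 25 phosphodiesterase symbols, 4 regulatory subunits, 2 catalytic subunits and 3 inhibitors. The choice by symbol also took Pde4dip, myomegalin, a centrosome and Golgi scaffold that binds Pde4d and is not itself a phosphodiesterase. It missed Pde12, whose symbol has no letter and whose product degrades oligoadenylates, not cyclic nucleotides.

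Adenylyl cyclases make cyclic AMP (cAMP) when receptors that couple to the G protein Gs are occupied, and phosphodiesterases hydrolyse cAMP, cyclic GMP (cGMP) or both. cAMP binds the regulatory subunits of protein kinase A (PKA), which release the catalytic subunits to phosphorylate targets such as the transcription factor CREB. In polycystic kidney disease cAMP is known for driving fluid secretion and proliferation of cyst-lining cells, and blocking the vasopressin receptor that raises it is an approved treatment in patients. Isoforms differ in how calcium acts on them: Adcy5 and Adcy6 are inhibited by calcium, Adcy1 and Adcy8 are stimulated through calmodulin, and so are the Pde1 phosphodiesterases.

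Whole-kidney poly(A) RNA had been sequenced from 3 mice of each of 3 genotypes, given here as Pkd2+Ift88 DKO (Ift88fl/fl;Pkd2fl/fl;Pax8rtTA;TetO-cre), Pkd2 KO (Pkd2fl/fl;Pax8rtTA;TetO-cre) and WT (labelled wild type, with no alleles listed). All 9 mice were labelled C57BL/6 and were killed at 10 weeks of age, after oral doxycycline (2 mg/ml) that began on postnatal day 28 and lasted 2 weeks. Doxycycline switches on Cre where the Pax8 promoter drives rtTA, in tubular epithelium, so the deletions are aimed at tubules and not at stroma, vessels or glomerular tufts. Ift88 encodes a transport protein that cilia need for assembly, and the design set loss of polycystin-2 against its loss together with cilia.

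Levels are normalized counts, the read counts of a gene after the authors scaled each library to a common size, and the 9 libraries summed to between 40454151 and 42874467. Differences are log2 fold changes of (normalized count + 1) with their standard error (SE), from limma fitted to all 15740 genes with a mean of at least 10. A gene is said to rise or fall where its two-sided Benjamini-Hochberg adjusted p over those genes was under 0.05. Pkd2 had 5181, 3777 and 5102 normalized counts in DKO kidneys, 4723, 5083 and 5549 in KO kidneys, and 13768, 14013 and 14505 in WT kidneys. Ift88 had 735, 691 and 831 normalized counts in DKO kidneys, 1121, 1086 and 1214 in KO kidneys, and 1132, 1067 and 1056 in WT kidneys, so both targeted genes were low in the libraries labelled as lacking them. Ift88 fell in DKO against KO kidneys, with a log2 difference of -0.60 ± 0.09 (limma adjusted p = 0.0358). Against WT kidneys its log2 difference of -0.53 ± 0.09 did not pass the threshold (limma adjusted p = 0.0617). Proximal tubule markers were present throughout and summed to between 1245831 and 1661302 normalized counts.

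Of the 44 genes, 40 reached the mean of 10 and were tested. The other 4 were barely detected: Adcy8, a calcium-stimulated cyclase, had 0 to 4.02 normalized counts over the 9 libraries, the cone photoreceptor subunits Pde6c and Pde6h had 0 to 1.09 and 0.975 to 13.1, and the rod subunit Pde6b had 0 to 13.4. Replicate 3 of the KO and of the WT mice carried another sample-name prefix than replicates 1 and 2 of its group, and no prefix occurred in more than 1 genotype. The name of DKO replicate 3 held a hyphen that the names of DKO replicates 1 and 2 lacked. What the prefix or the hyphen stands for is not stated in the labels. A weighting of libraries by how well they followed the fit gave KO and WT replicate 3 the lowest weights, 0.364 and 0.318. DKO replicate 3 had the next lowest, 0.52. Values without both KO and WT replicate 3 are given for those of the 40 tested genes whose call then changes.

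Among the cyclases Adcy6, the calcium-inhibited isoform tied to cyst growth in mouse models, was the main transcript. Counts were divided by each gene's exon length in GENCODE M21, an annotation the authors may not have used, to set genes side by side. In WT kidneys Adcy6 averaged 889 normalized counts per kb (862 to 906 over the 3 mice), followed by Adcy9 at 175 (166 to 187) and Adcy1 at 94.0 (70.0 to 106). Adcy4, a cyclase that G-protein beta-gamma subunits stimulate, averaged 51.7 and Adcy5 averaged 38.6 normalized counts per kb, and their ranges met at 42.0. Adcy7 averaged 26.4, Adcy3 averaged 15.2, Adcy2 averaged 3.05 and the bicarbonate-activated soluble cyclase Adcy10 averaged 1.64 normalized counts per kb. Apart from Adcy4 and Adcy5, neighbours in this order did not overlap in the 3 WT mice.

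Phosphodiesterase transcripts of WT kidneys were led by 2 cAMP-selective enzymes. Pde4c averaged 903 normalized counts per kb (728 to 1022), and Pde8a, a high-affinity enzyme, averaged 870 (849 to 893), with overlapping ranges. Pde1a followed at 540 (425 to 609) and overlapped Pde4dip at 487 (451 to 526). Next came Pde6d at 359, which encodes a carrier that brings lipid-modified proteins to cilia, Pde9a at 353, a cGMP-selective enzyme, and Pde6a, a rod photoreceptor subunit, at 281. Pde7a stood at 186 and Pde2a, a cGMP-stimulated enzyme, at 181 normalized counts per kb.

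PKA held the most abundant transcripts of the group per kb. The regulatory subunit Prkar1a averaged 2382 normalized counts per kb in WT kidneys (2290 to 2460), above Prkar2a at 472, Prkar2b at 104 and Prkar1b at 47.0. Of the catalytic subunits, Prkaca averaged 1703 normalized counts per kb (1578 to 1767) and Prkacb averaged 436 (429 to 449). Among the inhibitor peptides, which occupy the substrate groove of the catalytic subunit, Pkia averaged 470 and Pkig 375, against 3.31 for Pkib.

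**Figure D1:**
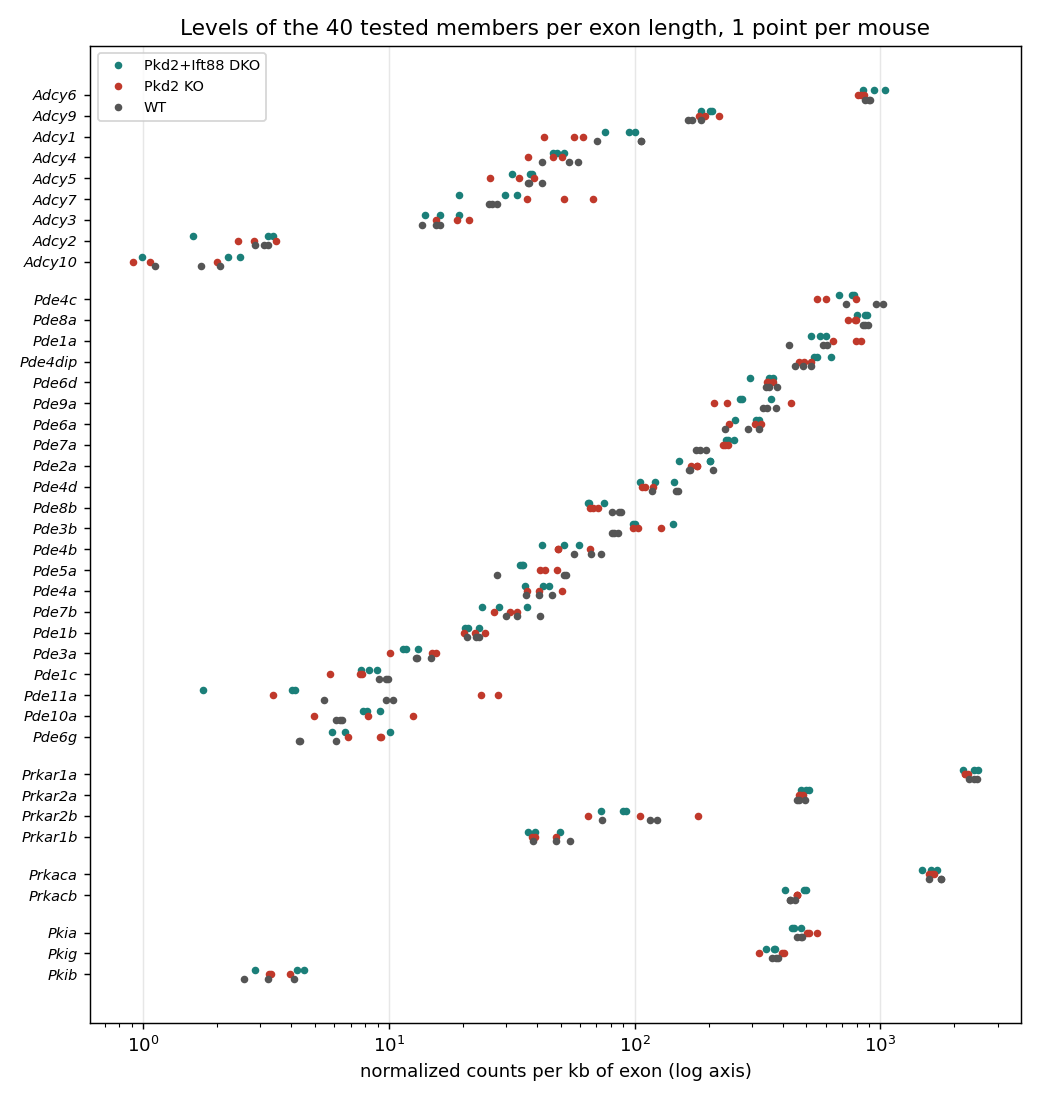
Normalized counts per kb of exon (log axis) of the 40 tested genes, with 1 point per mouse, coloured by genotype (DKO, KO, WT). Adcy6 lies near 889 in WT kidneys, far right of the other cyclases, and Prkar1a is the rightmost gene of all. The points of the 3 genotypes lie close together for most genes. KO points lie apart from both other genotypes for genes such as Adcy1, Adcy7 and Pde1a, and WT points for Pde7a, Pde3b and Pde8b.

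Loss of Pkd2 alone was followed by 1 call among these genes. Pde7a, a cAMP-specific phosphodiesterase known for its expression in T cells, rose in KO kidneys to 126% of its WT mean. By limma 1 of 40 tested genes passed the test in KO against WT kidneys (2.5%), against 2.4% of all genes tested (1.14% higher, 1.25% lower), so the share of calls was near the background. At an unadjusted p under 0.05 the counts were 12 of 40 (30.0%) among these genes and 18.0% among all genes. The 3 KO values lay wholly above or below the 3 WT values in 13 of 40 genes (32.5%), 7 higher and 6 lower, against 25.2% of all genes (12.4% higher, 12.8% lower). Those higher were Adcy7, Pde1a, Pde3b, Pde6g, Pde7a, Prkacb and Pkia, and those lower were Adcy1, Adcy6, Pde1c, Pde8a, Pde8b and Prkar1a. The median log2 difference was -0.02 for the 40 genes and 0.00 for all genes, and the median size regardless of sign was 0.177 and 0.157.

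By limma no gene of the group was called between DKO and KO kidneys, against 0.394% of all genes (0.127% higher, 0.267% lower). On 7 libraries, without KO and WT replicate 1, edgeR and DESeq2 also called 0 of these genes. Over all 15740 genes those runs called 10 and 149, so their 0 says little about 40 genes. At a limma unadjusted p under 0.05 the share was 7 of 40 (17.5%), against 10.7% of all genes. The groups lay apart in 7 of 40 genes (17.5%), 3 higher (Adcy1, Pde8a, Pde4dip) and 4 lower (Adcy7, Pde1a, Pde5a, Pkia) in DKO kidneys, against 15.2% of all genes (7.4% higher, 7.78% lower). For DKO against WT kidneys limma, edgeR and DESeq2 again called 0 of 40, against 0.229% of all genes by limma (0.0762% higher, 0.152% lower). Over all genes edgeR and DESeq2 called 10 and 111 in that comparison. There 4 of 40 (10.0%) had an unadjusted p under 0.05, against 11.7% of all genes, and 7 of 40 lay apart, 4 higher (Pde3b, Pde4dip, Pde7a, Pde10a) and 3 lower (Pde1c, Pde8b, Pde11a), against 18.3% of all genes (9.1% higher, 9.24% lower). The KO libraries enter both the first and the second comparison and the WT libraries the first and the third, so the 3 are not independent of each other.

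**Figure D2:**
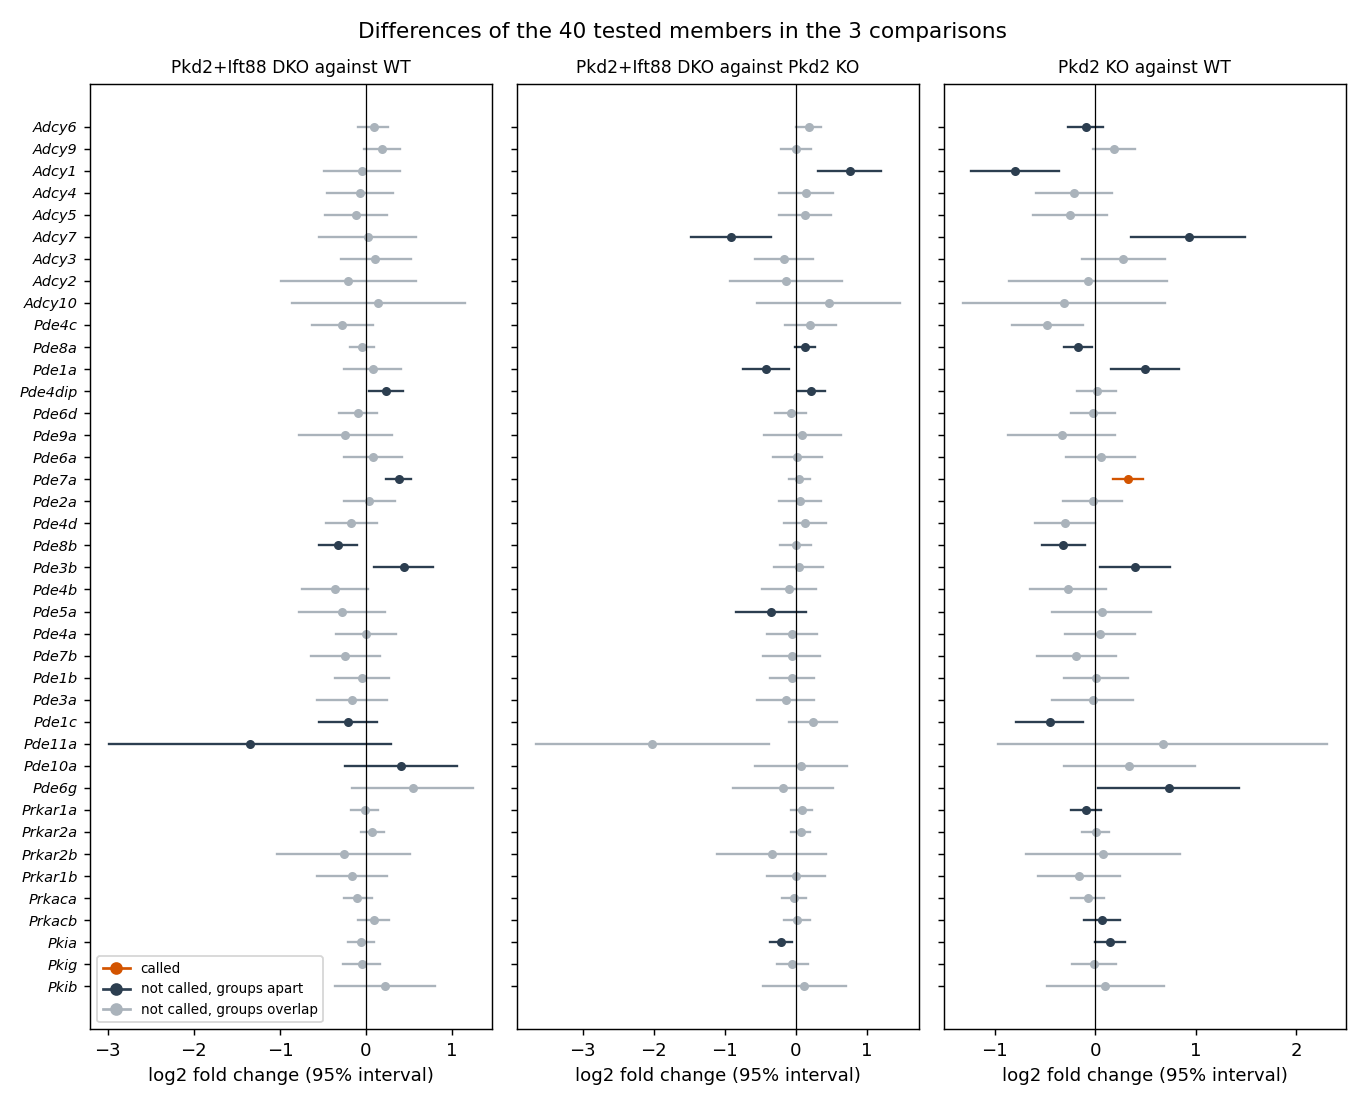
Log2 fold changes of the 40 tested genes with 95% intervals from the limma fit, 1 panel per comparison (DKO against WT, DKO against KO, KO against WT), with called genes in orange and genes whose groups do not overlap in dark blue. Pde7a is the one called gene, at 0.33 in KO against WT kidneys; Adcy1 and Adcy7 lie on opposite sides of 0 in KO against WT and each on the other side in DKO against KO kidneys.

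Adcy1 and Adcy7 showed the widest non-overlapping differences in KO kidneys, in opposite directions, and neither passed the adjusted threshold. Adcy1, a calmodulin-stimulated cyclase best known from neurons, had 1256, 1186 and 947 normalized counts in DKO kidneys, 708, 770 and 535 in KO kidneys, and 1326, 1330 and 876 in WT kidneys. All 3 KO mice lay below all WT and all DKO mice, while DKO and WT values overlapped. Its KO mean was 57.0% of the WT mean (671 ± 122 and 1177 ± 261, SD, n = 3 each), a log2 difference of -0.80 ± 0.20 (SE) with a limma adjusted p of 0.0749 and a 95% interval of -1.24 to -0.36. Without WT replicate 3, the lowest WT mouse, the adjusted p was 0.0354, without both KO and WT replicate 3 it was 0.0324, and without any other single mouse it was 0.0698 to 0.216. In DKO against KO kidneys the log2 difference was 0.76 ± 0.20 with an adjusted p of 0.171, and the DKO mean was 1130 ± 162, 168% of the KO mean. Replicate 3 was the lowest mouse of each genotype. With replicate number as a block in the limma fit, the adjusted p was 0.0148 in KO against WT and 0.0457 in DKO against KO kidneys.

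Adcy7, a cyclase common in blood cells, had 199, 130 and 224 normalized counts in DKO kidneys, 347, 457 and 247 in KO kidneys, and 172, 185 and 177 in WT kidneys. The KO mice lay above all others, and KO replicate 3 came closest to them. The KO mean was 197% of the WT mean (means of 350 and 178 normalized counts, n = 3 each), with a log2 difference of 0.93 ± 0.25, a 95% interval of 0.36 to 1.49 and a limma adjusted p of 0.0962. Without KO replicate 3 the adjusted p was 0.0462, without both KO and WT replicate 3 it was 0.0636, and without any other single mouse it was 0.0677 to 0.263. The DKO mean was 185 ± 48.6 normalized counts, 52.8% of the KO mean, and the log2 difference of DKO from KO kidneys was -0.91 ± 0.25 with an adjusted p of 0.195. Per kb, Adcy1 and Adcy7 stood at 90.2 and 27.4 normalized counts in DKO kidneys and 94.0 and 26.4 in WT kidneys. In KO kidneys Adcy1 stood at 53.6 (42.7 to 61.5 over the 3 mice) and Adcy7 at 52.0 (36.6 to 67.9), with overlapping ranges.

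Markers of other cells also differed between genotypes. The 7 macrophage markers in the table, none at 0, summed to 4327 to 4944 normalized counts in DKO kidneys, 5120 to 6484 in KO kidneys and 4298 to 4876 in WT kidneys, and 0 of 7 were called in KO against WT kidneys. KO replicate 3 had the lowest macrophage sum and the lowest Adcy7 of the KO mice. Thick ascending limb markers (Umod, Slc12a1 and others) summed to 224242 to 292735 normalized counts in DKO kidneys, 169747 to 207210 in KO kidneys and 357879 to 375391 in WT kidneys, with 4 of 7 fallen in KO kidneys and none at 0. The 6 markers of dividing cells, all risen in KO against WT kidneys, summed to 480 to 1046 normalized counts in DKO kidneys, 2389 to 2960 in KO kidneys and 391 to 511 in WT kidneys. Fibroblast markers summed to 4680 to 5749 normalized counts in DKO kidneys, 8576 to 13908 in KO kidneys and 5963 to 8451 in WT kidneys, with 0 of 6 called in KO against WT kidneys and none at 0. Intercalated cell markers summed to 10327 to 13987 normalized counts in DKO kidneys, 8836 to 9423 in KO kidneys and 11588 to 12091 in WT kidneys, with 1 of 7 fallen in KO against WT kidneys and none at 0. Podocyte markers summed to 14517 to 15861 normalized counts in DKO kidneys, 13084 to 13911 in KO kidneys and 15332 to 15700 in WT kidneys. Of these 5 podocyte markers 0 were called in KO against WT kidneys, and none was at 0. KO mice stood apart from both other genotypes in each of these sums. Over all genes 1.14% rose and 1.25% fell in KO against WT kidneys. In other lists, such as proximal tubule, endothelium and principal cells, KO mice overlapped another genotype. Principal cell markers summed to 23335 to 27818 normalized counts in KO and 21744 to 34132 in DKO kidneys. In whole kidneys fewer cells of a type and less RNA per cell cannot be told apart, and the part these cells have in the Adcy1 and Adcy7 values was not tested.

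**Figure D3:**
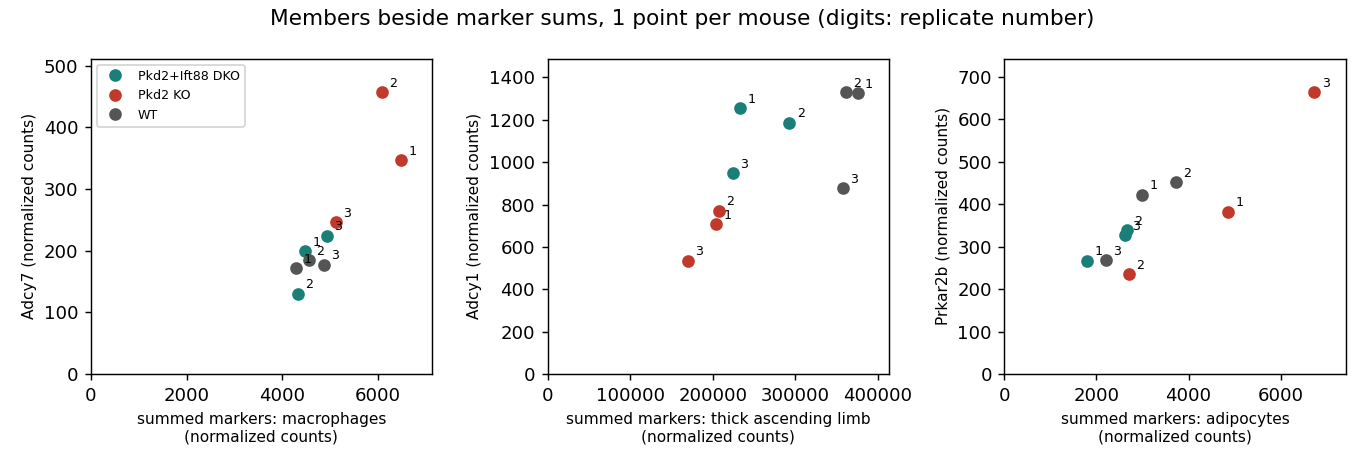
Adcy7 beside the summed macrophage markers, Adcy1 beside the summed thick ascending limb markers and Prkar2b beside the summed adipocyte markers, all in normalized counts, with 1 point per mouse numbered by replicate. The 3 KO mice have the highest macrophage sums (5120 to 6484) and the highest Adcy7, and the lowest thick ascending limb sums (169747 to 207210) and the lowest Adcy1; KO replicate 3 is highest in both Prkar2b and adipocyte markers.

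The sequences in front of these 2 genes are shown since they carried the largest opposed differences. The 250 bases before the annotated start come from RefSeq (GRCm38.p6, both on the + strand), at chr11:7063183-7063432 for Adcy1 and chr8:88282742-88282991 for the first of 3 Adcy7 starts. Capitals mark CGTCA, the core TGACG of the cAMP response element as read on the other strand. It occurred in the printed Adcy7 window, not in the windows of the later Adcy7 starts, and not in the Adcy1 window.
Adcy1: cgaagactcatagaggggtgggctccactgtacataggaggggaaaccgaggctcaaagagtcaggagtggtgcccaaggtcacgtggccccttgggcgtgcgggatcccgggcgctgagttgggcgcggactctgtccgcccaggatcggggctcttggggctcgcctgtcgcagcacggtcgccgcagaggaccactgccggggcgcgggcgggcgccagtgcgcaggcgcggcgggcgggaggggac
Adcy7: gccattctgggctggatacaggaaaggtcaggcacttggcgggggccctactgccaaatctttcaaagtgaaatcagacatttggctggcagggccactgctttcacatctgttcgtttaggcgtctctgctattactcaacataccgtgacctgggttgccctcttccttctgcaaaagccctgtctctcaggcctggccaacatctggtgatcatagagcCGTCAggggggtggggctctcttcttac

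RefSeq promoters were matched for 34 of the 44 genes, with 75 start windows in all. The other genes, not matched, were Adcy6, Adcy8, Pde3a, Pde3b, Pde6a, Pde6c, Pde6g, Pde7a, Pde9a and Pkia. The core, searched as TGACG on both strands, occurred in 14 of 75 windows (18.7%), against 17.8% of 32851 windows of all genes. The full element TGACGTCA, which reads alike on both strands and contains the core, occurred in 1 of 75 windows (1.33%), against 1.55% of all windows. The one window was at Prkar1a, the PKA regulatory subunit, and the stretch printed here is chr11:109650890-109650917 on the + strand. The first base of the element, marked by capitals, lay 49 bases before an annotated start.
Prkar1a: cgaggcgcatTGACGTCAgcagccgaac

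The remaining 7 cyclases had limma adjusted p-values of 0.334 or more in KO against WT kidneys. Adcy6 had 6409, 7107 and 5765 normalized counts in DKO kidneys, 5519, 5799 and 5648 in KO kidneys, and 5843, 6096 and 6146 in WT kidneys. KO and WT mice did not overlap, with a log2 difference of only -0.09 ± 0.08 (adjusted p = 0.575, 95% interval -0.27 to 0.08), and DKO values spread over both. Adcy5, the other calcium-inhibited isoform, differed by -0.25 (interval -0.62 to 0.12) and Adcy9, which forskolin barely activates, by 0.19 (interval -0.02 to 0.40) on the log2 scale in KO against WT kidneys. Adcy3, a cyclase found in neuronal and olfactory cilia, had a log2 difference of 0.28 in KO against WT kidneys and -0.17 in DKO against KO kidneys, with overlapping groups. Adcy4 differed by -0.21 on the log2 scale in KO against WT kidneys, and the sparse Adcy2 and Adcy10 by -0.07 and -0.31, each with overlapping groups.

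The cAMP-selective phosphodiesterases (Pde4, Pde7 and Pde8) included the one called gene, and none of the other 7 was called in any comparison. Pde7a had 1820, 1961 and 1864 normalized counts in DKO kidneys, 1770, 1867 and 1808 in KO kidneys, and 1434, 1376 and 1520 in WT kidneys. All mutant mice lay above all WT mice, and DKO and KO mice overlapped. The means were 1882 ± 71.9 in DKO, 1815 ± 49.0 in KO and 1443 ± 72.3 in WT kidneys (SD, n = 3 each). KO kidneys exceeded WT kidneys by 0.33 ± 0.07 on the log2 scale (limma adjusted p = 0.0381, 95% interval 0.18 to 0.48), and DKO kidneys exceeded WT kidneys by 0.38 ± 0.07 without passing (adjusted p = 0.0814). Without KO and WT replicate 3 the difference of DKO from WT kidneys was 0.42 with an adjusted p of 0.0477. DKO differed from KO kidneys by 0.05 (interval -0.10 to 0.20).

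The Pde7a call was close to the threshold. Its adjusted p in KO against WT kidneys was 0.118, 0.153 and 0.0605 without KO replicate 1, 2 and 3, 0.124 and 0.142 without WT replicate 1 and 2, and 0.0578 and 0.0525 without DKO replicate 1 and 2. The call stayed without WT replicate 3 or DKO replicate 3, and was lost with replicate number as a block in the limma fit (adjusted p = 0.0786). Over 22 alternatives the log2 difference ran from 0.30 to 0.37, with adjusted p from 0.00272 to 0.309 and 9 calls. In GENCODE M21 an exon of Gm16093 on the opposite strand overlaps Pde7a, and the strand setting of the counting is not given in the sources used here. Exons of other genes also overlap Adcy2, Adcy3 (Cenpo), Adcy6, Pde3a, Pde5a, Pde6h, Pde8b and Pde9a on the opposite strand. Pde2a, Pde4dip and Prkar1b have such an overlap on the same strand. T, B and NK lymphocyte markers summed to 386 to 959 normalized counts in DKO kidneys, 680 to 1328 in KO kidneys and 444 to 650 in WT kidneys, with 0 of 8 tested called and none of 9 at 0, and their part in the Pde7a value was not tested.

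The genes from here to the end of the paragraph were chosen after their values were seen. Of 8 cAMP-selective phosphodiesterases 6 had a negative log2 difference in KO against WT kidneys (median -0.23) and 7 in DKO against WT kidneys (median -0.20), against 7737 and 7905 of 15740 genes and a median of 0.00 over all genes in each. None of these negative differences passed the test, and Pde4b, Pde4c, Pde4d and Pde7b had overlapping KO and WT groups. Pde8b had 440, 382 and 379 normalized counts in DKO kidneys, 417, 387 and 399 in KO kidneys, and 516, 507 and 475 in WT kidneys. Every mutant mouse was below every WT mouse, and DKO and KO kidneys were not separated from each other. Its log2 difference was -0.32 ± 0.10 in both KO against WT (limma adjusted p = 0.127) and DKO against WT kidneys (adjusted p = 0.254). Pde4c, known from primary cilia, where it has been found with polycystin-2, had 4348, 4265 and 3792 normalized counts in DKO kidneys, 3361, 3086 and 4452 in KO kidneys, and 5716, 5366 and 4069 in WT kidneys. KO replicate 3 and WT replicate 3 crossed, and the log2 difference of KO from WT kidneys was -0.48 ± 0.16 (adjusted p = 0.157). Without both of those mice, a fit that leaves 2 KO and 2 WT mice, it was -0.78 with an adjusted p of 0.0183. Pde8a differed by -0.17 ± 0.06 (adjusted p = 0.198) with groups apart, and Pde4d, which anchoring proteins hold beside PKA, by -0.30 ± 0.13 (adjusted p = 0.274) with groups overlapping.

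Phosphodiesterases that act on both nucleotides (Pde1, Pde2, Pde3, Pde10, Pde11) were split, 5 of 8 positive and 3 negative in KO against WT kidneys. Pde1a, the calmodulin-stimulated enzyme that links calcium to cAMP breakdown, was chosen after its values were seen and had 3598, 3408 and 3149 normalized counts in DKO kidneys, 5009, 4791 and 3847 in KO kidneys, and 3524, 3660 and 2556 in WT kidneys. All KO mice lay above all others, and replicate 3 was lowest in each genotype. The KO mean was 4549 ± 617 against 3247 ± 602 in WT kidneys (SD, n = 3 each), 140% of it, with a log2 difference of 0.50 ± 0.15 and a limma adjusted p of 0.120. DKO differed from KO kidneys by -0.42 ± 0.15 on the log2 scale (adjusted p = 0.314). With replicate number as a block in the limma fit, the adjusted p was 0.0460 in KO against WT and 0.146 in DKO against KO kidneys. Without KO and WT replicate 3 the difference of KO from WT kidneys was 0.45 (adjusted p = 0.0389) and that of DKO from KO kidneys -0.54 (adjusted p = 0.0246), and without WT replicate 3 alone the first was 0.33 (adjusted p = 0.196). Of its relatives, Pde1c was lower in all KO mice than in all WT mice (log2 difference -0.45, adjusted p = 0.157) and Pde1b differed by 0.01 with an interval of -0.31 to 0.33.

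Pde3b, an insulin-regulated enzyme abundant in fat cells, was also chosen after its values were seen. It had 900, 1304 and 910 normalized counts in DKO kidneys, 1166, 940 and 902 in KO kidneys, and 735, 754 and 778 in WT kidneys, with all mutant mice above all WT mice. Log2 differences from WT kidneys were 0.44 ± 0.15 in DKO (limma adjusted p = 0.314) and 0.40 ± 0.15 in KO kidneys (adjusted p = 0.214). Without DKO replicate 2 the DKO difference was 0.26 (adjusted p = 0.514). The 6 adipocyte markers summed to 1797 to 2654 normalized counts in DKO kidneys, 2698 to 6738 in KO kidneys and 2198 to 3732 in WT kidneys, with Lep at 0 in DKO replicates 2 and 3 and WT replicate 3. Pde3b was highest in DKO replicate 2, whose adipocyte sum was 2654 normalized counts, and their part in the Pde3b value was not tested.

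Pde11a, an enzyme of low abundance here, had the largest SE of the 40 genes, with 9.16, 21.7 and 21.1 normalized counts in DKO kidneys, 124, 145 and 17.5 in KO kidneys, and 54.2, 50.7 and 28.3 in WT kidneys. KO replicate 3 lay among the DKO mice and far below the other KO mice. The DKO mice were below all WT mice (log2 difference -1.35 ± 0.73, limma adjusted p = 0.517). DKO differed from KO kidneys by -2.02 ± 0.73 with an adjusted p of 0.336, and by -2.97 with an adjusted p of 0.0313 when KO replicate 3 was left out (0.0208 without WT replicate 3 as well). Pde10a was higher in all DKO than in all WT mice (log2 difference 0.41, adjusted p = 0.632), and Pde2a and Pde3a differed by -0.02 each in KO against WT kidneys.

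The cGMP-selective enzymes and photoreceptor subunits (Pde5, Pde6, Pde9) had a median log2 difference of 0.06 over 5 genes in KO against WT kidneys. Pde6g, the inhibitory subunit of the rod enzyme, was near the detection floor with 23.4, 13.6 and 15.3 normalized counts in DKO kidneys, 15.9, 21.5 and 21.4 in KO kidneys, and 10.0, 10.1 and 14.2 in WT kidneys. KO and WT mice lay apart by as little as 15.9 against 14.2 normalized counts, with a log2 difference of 0.73 ± 0.31 (limma adjusted p = 0.260). Pde5a, the target of sildenafil, chosen after its values were seen, had 343, 335 and 345 normalized counts in DKO kidneys, 406, 423 and 474 in KO kidneys, and 517, 506 and 271 in WT kidneys. DKO mice lay below KO mice and WT replicate 3 below all others, and DKO differed from KO kidneys by -0.35 on the log2 scale (adjusted p = 0.675). DKO differed from WT kidneys by -0.28, and by -0.58 (adjusted p = 0.0428) without KO and WT replicate 3, -0.58 (0.0670) without WT replicate 3, and -0.12 and -0.13 without WT replicate 1 and 2. Pde9a differed by -0.33 with an interval of -0.87 to 0.20 in KO against WT kidneys, and by -0.22, -0.13 and -0.65 (adjusted p = 0.0522 for the last) without KO replicate 1, 2 and 3. Pde6a and Pde6d differed by 0.06 and -0.02.

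Pde4dip, the scaffold taken in by its symbol, had the highest count of the phosphodiesterase symbols. It had 9329, 10606 and 9085 normalized counts in DKO kidneys, 8247, 8804 and 7860 in KO kidneys, and 8190, 8860 and 7602 in WT kidneys. The 3 DKO mice lay above all KO and WT mice, with log2 differences of 0.22 ± 0.09 from KO (limma adjusted p = 0.385) and 0.23 ± 0.09 from WT kidneys (adjusted p = 0.330).

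**Figure D4:**
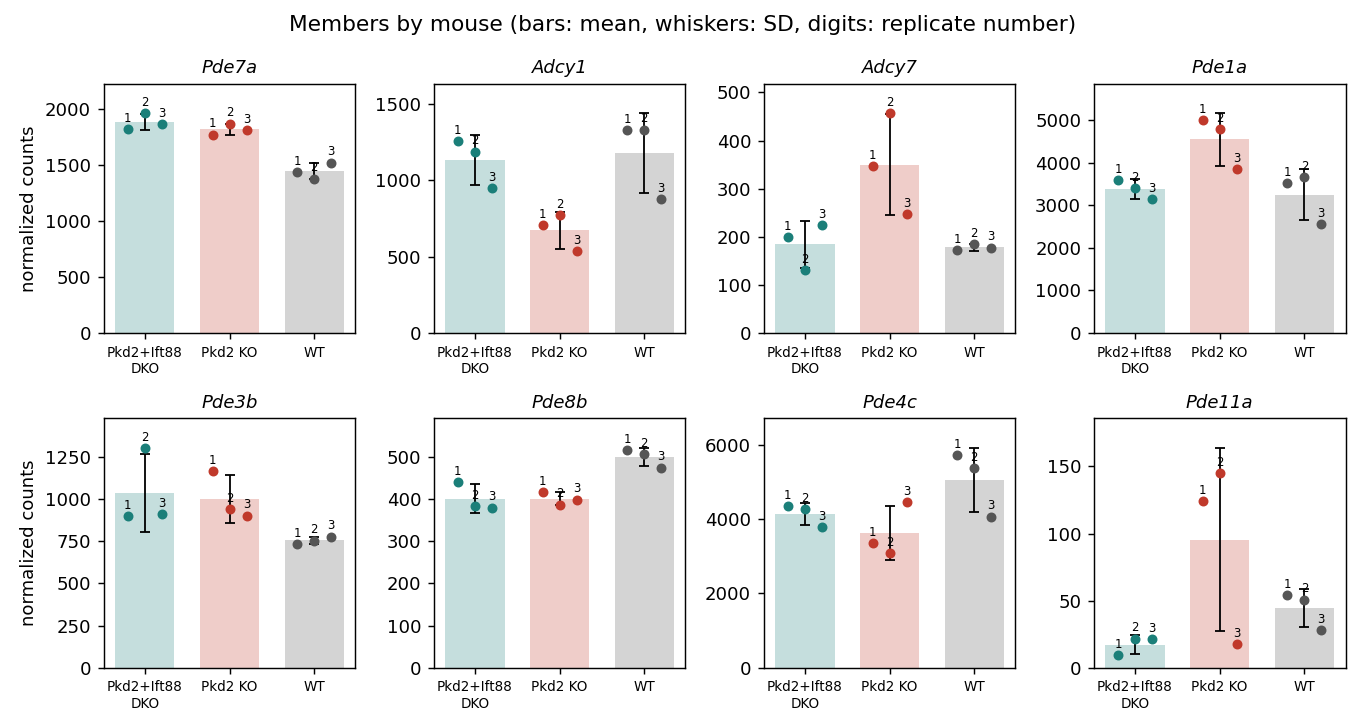
Normalized counts of 8 genes by genotype (DKO, KO, WT), with 1 numbered point per mouse, bars for the mean and whiskers for the SD (n = 3). Pde7a is high in both mutants (means 1882 and 1815, against 1443 in WT); Adcy1 is low and Adcy7 and Pde1a are high in all KO mice without being called, and replicate 3 of KO and WT often stands apart, as for Pde11a (17.5 against 124 and 145).

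The 9 genes of PKA itself were not called in any comparison by limma, edgeR or DESeq2. On 7 libraries edgeR called 11, 10 and 10 of all 15740 genes in KO against WT, DKO against KO and DKO against WT kidneys. DESeq2 called 296, 149 and 111. In KO against WT kidneys the median size over the 9 PKA genes was 0.0764 on the log2 scale, against 0.157 over all genes. The 9 differences ran from -0.16 to 0.15. The 95% intervals reached from -0.69 to 0.84 over the 9 genes, the widest being that of Prkar2b. For the median sizes, the PKA genes were not matched to all genes by count level. Mean normalized counts of the PKA genes over the 9 libraries ran from 42.0 (Pkib) to 10048 (Prkar1a). Pkia was the one PKA gene with an unadjusted p under 0.05 in KO against WT and in DKO against KO kidneys, and none had one in DKO against WT kidneys.

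Prkar1a, the main regulatory subunit, had 9408, 10800 and 10408 normalized counts in DKO kidneys, 9571, 9802 and 9562 in KO kidneys, and 9897, 10353 and 10632 in WT kidneys. KO lay just below WT mice, by -0.09 ± 0.07 on the log2 scale (limma adjusted p = 0.498), and DKO mice spanned both. Prkaca, the main catalytic subunit, had 3996, 4213 and 3670 normalized counts in DKO kidneys, 4116, 4038 and 3930 in KO kidneys, and 4388, 4396 and 3925 in WT kidneys. The groups overlapped, and the interval of the KO difference from WT kidneys was -0.24 to 0.09 on the log2 scale. Prkacb differed by 0.07 with KO mice above WT mice (interval -0.11 to 0.25).

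Pkia, the inhibitor peptide with the most transcript, had 1648, 1625 and 1767 normalized counts in DKO kidneys, 1875, 2053 and 1904 in KO kidneys, and 1764, 1698 and 1784 in WT kidneys. KO mice were above all others, with a log2 difference of 0.15 ± 0.07 from WT kidneys (limma adjusted p = 0.275), and DKO differed from KO kidneys by -0.21 ± 0.07 (adjusted p = 0.270). Prkar2b, the regulatory subunit of fat and brain, chosen after its values were seen, spread widely among KO mice (427 ± 217, SD, n = 3). It had 267, 338 and 327 normalized counts in DKO, 382, 235 and 663 in KO, and 422, 451 and 268 in WT kidneys. Its highest mouse, KO replicate 3, also had the highest adipocyte marker sum, 6738 normalized counts, and the part of fat in its value was not tested. Prkar2a, Prkar1b, Pkig and Pkib differed by 0.01, -0.16, -0.01 and 0.10 on the log2 scale in KO against WT kidneys, with overlapping groups.

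Receptors, effectors and other steps of the pathway were counted from lists. Of 29 tested receptors and G proteins that raise or lower cAMP (35 listed, 34 in the table) 0 rose and 4 fell in KO against WT kidneys, with a list median of -0.03 against 0.00 over all genes and a background of 1.25% fallen. Gcgr, the Gs-coupled glucagon receptor, fell by 1.04 ± 0.13 on the log2 scale (limma adjusted p = 0.00690), with 925, 1005 and 725 normalized counts in DKO kidneys, 668, 568 and 695 in KO kidneys, and 1232, 1331 and 1415 in WT kidneys. Casr, the calcium-sensing receptor that restrains cAMP in the thick ascending limb, fell by 0.65 ± 0.08 (adjusted p = 0.00525), with 2607, 2652 and 2720 normalized counts in DKO kidneys, 2286, 2002 and 2076 in KO kidneys, and 3274, 3090 and 3595 in WT kidneys. In both genes the DKO mice lay between KO and WT mice without overlapping either, and both calls remained whichever mouse was left out. On 7 libraries the adjusted p was 0.0892 by limma and 0.103 by edgeR for Gcgr, and 0.0737 and 0.0826 for Casr, so both calls were lost there, while DESeq2 kept them (1.89e-05 and 9e-06).

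Ptger3, a Gi-coupled prostaglandin receptor that is also 1 of the thick ascending limb markers, fell by 0.61 ± 0.10 in KO kidneys (limma adjusted p = 0.0167), and Gnaz, a Gi-family alpha subunit, fell by 0.72 ± 0.15 (adjusted p = 0.0452). Ptger3 had 1460, 1624 and 1315 normalized counts in DKO kidneys, 1130, 1264 and 1101 in KO kidneys, and 1665, 1812 and 1849 in WT kidneys, with DKO mice between the other groups. The Ptger3 call was lost without KO replicate 1 (adjusted p = 0.0741) or WT replicate 2 (0.0788), and the Gnaz call without any one of the 9 mice, with adjusted p up to 0.153. In DKO kidneys Gnaz had 151, 131 and 127 normalized counts, in KO kidneys 119, 124 and 98.5, and in WT kidneys 214, 175 and 177. No receptor or G protein was called in DKO against KO or DKO against WT kidneys by limma, edgeR or DESeq2. There 5 and 7 of 29 had a limma unadjusted p under 0.05, against 10.7% and 11.7% of all genes. Avpr2, the vasopressin receptor of principal cells, had 1.09 to 9.34 normalized counts over the 9 libraries and was not tested. The principal cell markers, Avpr2 among them, summed to 21744 to 34466 normalized counts. Overlaps of Avpr2 with other genes were not looked up, and what its low counts rest on was not tested.

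Of 19 tested CREB-family proteins, coactivators and other cAMP effectors (26 listed, 25 in the table), 2 fell and 0 rose in KO against WT kidneys (median -0.01), against 1.25% of all genes fallen. Both encode inhibitors of protein phosphatase 1 that PKA switches on. Ppp1r1b (DARPP-32) had 1266, 1525 and 1388 normalized counts in DKO kidneys, 769, 752 and 725 in KO kidneys, and 2079, 1980 and 1999 in WT kidneys. The 3 genotypes did not overlap. It fell by 1.43 ± 0.08 on the log2 scale in KO against WT kidneys (limma adjusted p = 0.000146) and rose by 0.89 ± 0.08 in DKO against KO kidneys (adjusted p = 0.00272), and both calls remained whichever mouse was left out. On 7 libraries the call in DKO against KO kidneys was lost by limma (adjusted p = 0.0535) and edgeR (0.0518) and kept by DESeq2 (1.28e-08). It fell by 0.54 ± 0.08 in DKO against WT kidneys (adjusted p = 0.0403), a call that leaving out DKO replicate 2 or KO replicate 3 kept and leaving out any other mouse ended, with adjusted p from 0.0587 to 0.247. An exon of 1700003D09Rik overlaps Ppp1r1b on the opposite strand in GENCODE M21.

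Ppp1r1a, inhibitor-1 of the same phosphatase, had 4506, 4464 and 3311 normalized counts in DKO kidneys, 2678, 3015 and 3186 in KO kidneys, and 5853, 5241 and 4712 in WT kidneys. It fell by 0.83 ± 0.13 in KO against WT kidneys (limma adjusted p = 0.0175), and the call was lost without KO replicate 1 or 2 or WT replicate 1 or 2 (adjusted p 0.0691 to 0.0788). Thick ascending limb and distal tubule markers moved with these genes. Markers of the distal convoluted and connecting tubule summed to 37638 to 49901 normalized counts in DKO kidneys, 35712 to 40191 in KO kidneys and 54754 to 63872 in WT kidneys. Of these 7 markers 2 fell in KO against WT kidneys, against 1.25% of all genes, and none was at 0. The part of the sums of either segment in the calls of the pathway lists was not tested.

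Genes that CREB is known to switch on showed 1 call, in DKO against WT kidneys, where 0.152% of all genes fell. Of 22 tested (24 listed, 23 in the table) 0 were called in KO against WT or DKO against KO kidneys by limma. In each, 3 had a limma unadjusted p under 0.05, against 18.0% and 10.7% of all genes. DESeq2 on 7 libraries called 2 and 1, against 296 and 149 of 15740 genes. By edgeR 0 were called, against 11 and 10 of all genes. The list medians were -0.23 and -0.13, against 0.00 over all genes. In DKO against WT kidneys 5 of 22 had a limma unadjusted p under 0.05, against 11.7% of all genes. The list median there was -0.10. DESeq2 on 7 libraries called 2 in that comparison, against 111 of 15740 genes, and edgeR called 0, against 10. Sik1, a kinase that cAMP induces and that restrains CREB coactivators, had 4543, 4429 and 4202 normalized counts in DKO kidneys, 4723, 5479 and 5515 in KO kidneys, and 6962, 10145 and 7216 in WT kidneys. It fell by 0.86 ± 0.14 in DKO against WT kidneys (limma adjusted p = 0.0497), a call that leaving out any one mouse but WT replicate 2 ended, with adjusted p from 0.0509 to 0.171. Its log2 difference of KO from WT kidneys, -0.61, had an adjusted p of 0.0524.

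Of 22 tested A-kinase anchoring proteins, which tether PKA (26 listed, 25 in the table), 0 were called in any of the 3 comparisons by limma, edgeR or DESeq2. At a limma unadjusted p under 0.05 there were 1, 2 and 2 in KO against WT, DKO against KO and DKO against WT kidneys. Over all genes the shares at that p were 18.0%, 10.7% and 11.7%. Medians of the anchoring proteins were 0.03, 0.02 and 0.04 on the log2 scale. Of 15 tested genes of cGMP synthesis and cGMP-dependent kinases (24 listed, 21 in the table), 1 fell in KO against WT kidneys, against 1.25% of all genes. This gene, Guca2b, encodes uroguanylin, a peptide ligand of a guanylyl cyclase, and had 4662, 3645 and 5617 normalized counts in DKO kidneys, 3551, 3356 and 3313 in KO kidneys, and 5748, 5679 and 7618 in WT kidneys. Its fall was 0.88 ± 0.16 on the log2 scale (limma adjusted p = 0.0286), and leaving out any 1 KO or WT mouse ended the call (adjusted p 0.0537 to 0.0978).

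**Figure D5:**
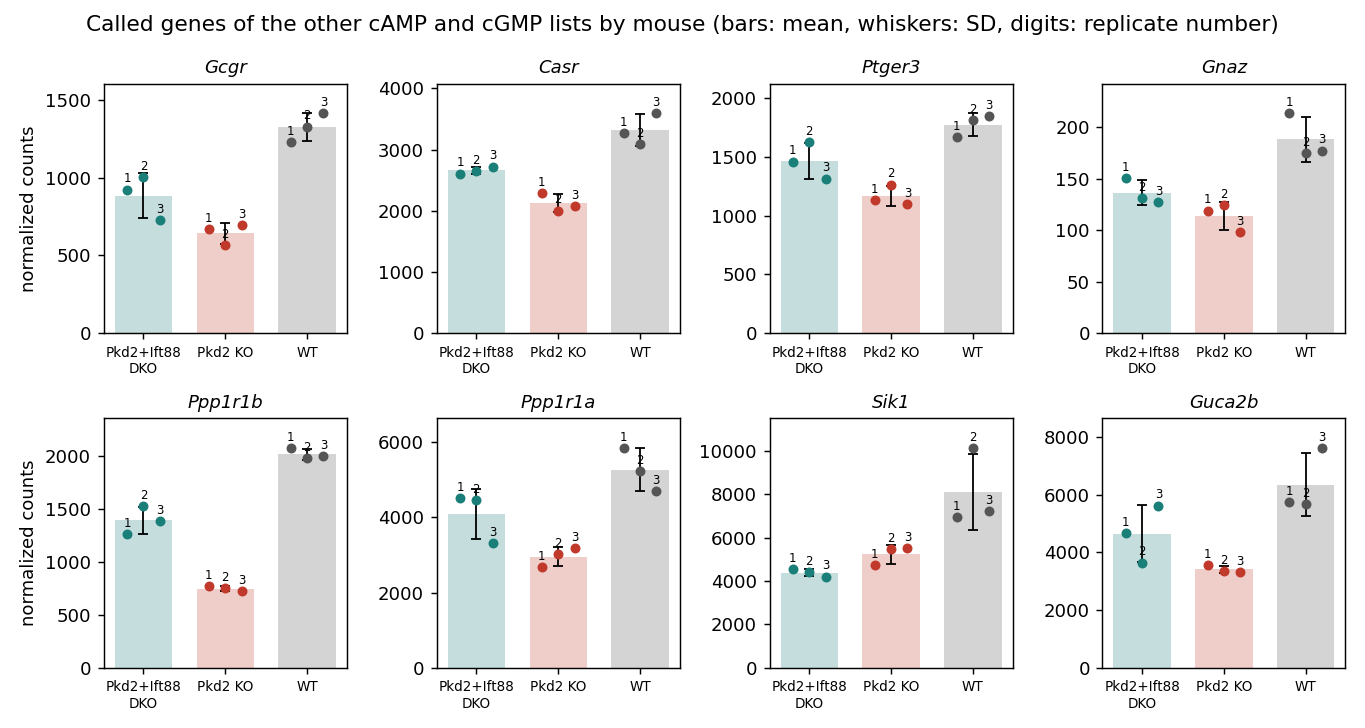
Normalized counts of the 8 called genes of the receptor, effector, CREB-responsive and cGMP lists by genotype (DKO, KO, WT), with 1 numbered point per mouse, bars for the mean and whiskers for the SD (n = 3). In 7 of the 8 panels the DKO mean lies between the KO and WT means, as for Ppp1r1b (725 to 769 in KO, against 1980 to 2079 in WT); in Sik1 the DKO mice are lowest (4202 to 4543).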

How the data were processed

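The deposited table holds 1 value per gene and library for whole-kidney poly(A) RNA of 9 mice. These signal values are normalized counts, not raw counts, that the authors made with STAR 2.5.0, HTSeq 0.6.1 and DESeq2 (per the submitters' processing notes). Build, annotation and strand setting were not given in the sources used here. Dividing each library by the value of 1 read gave whole reads for 100% of values (tolerance 0.05) in 7 of 9 libraries, 37056843 to 47314829 reads each; WT replicate 1 and KO replicate 1 gave no usable step. Of the row names 25 are dates, left by a spreadsheet, and were kept as rows.

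Genes with a mean of at least 10 over the 9 libraries (15740 of 22161) were fitted with limma 3.58.1 in R 4.3.3 on log2(value + 1), all 3 groups together, trended variance, no block, Benjamini-Hochberg over all genes, two-sided. The pseudocount understates the change of low genes. edgeR 4.0.16 and DESeq2 1.42.0 were run on the recovered reads as alternatives, with other pseudocounts, filters, scalings, library weights and each mouse left out. Replicates were labelled biological; with 3 mice against 3 an exact permutation test of 1 gene cannot go below p = 0.1, so only model-based p-values are given.

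The genes, the comparison lists and the markers were chosen with earlier results of these data known. Values per mouse were given by rule to genes called, to genes whose groups did not overlap with a log2 difference of at least 0.5 in size, and to the gene of highest mean count in each family; of other lists, to called genes. Pde1a, Pde3b, Pde4c, Pde5a, Pde8b and Prkar2b were added after their values were seen. Promoters are RefSeq windows of 250 bases.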

Additional observations from a re-analysis of the deposited data

How the results depend on the processing

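None of the named genes recomputed changed direction under any alternative run. The count of group members called in KO against WT kidneys, 1 with limma as described, was 0 with no filter, with only the 2 groups compared, and on 7 libraries by limma, edgeR or DESeq2, 4 without KO and WT replicate 3, 12 with array quality weights, and 0 to 2 when each mouse was left out. With library weights the 12 comprised 4 higher and 8 lower genes, Adcy1 and Adcy7 among them (adjusted p 0.00240 and 0.00548). In DKO against KO kidneys the count of 0 became 4 with weights, 2 without KO and WT replicate 3 and 0 to 1 when each mouse was left out; in DKO against WT kidneys it became 1, 2 and 0 to 0. Replicate numbers were shared across groups. Deviations of same-numbered mice correlated at -0.142 to 0.215, and most mice correlated best with another number. With 3 mice a group these values cannot settle whether the numbers mark a pairing. With the replicate block the calls were 2 in KO against WT (Adcy1 and Pde1a, without Pde7a), 1 in DKO against KO (Adcy1) and 0 in DKO against WT kidneys. Over all genes the calls in KO against WT kidneys, 377, were 3222 with weights, 517 without KO and WT replicate 3, 217 with the replicate block, 11 with edgeR, 13 with limma on 7 libraries and 70 to 436 with a mouse left out. Those in DKO against KO kidneys, 62, were 614, 308, 15, 10, 11 and 8 to 154 in the same order, 149 with DESeq2, 26 with only the 2 groups and 31 with quantile normalization. In DKO against WT kidneys 36 became 295, 111, 20, 10, 11 and 18 to 58, and 111 with DESeq2. Of the 8 called genes of the other lists, limma and edgeR on 7 libraries called Ppp1r1b in KO against WT kidneys alone, and DESeq2 called all but Gnaz. The cause of these shifts was not tested. Genes of about 10 normalized counts, such as Pde6g, rest on few reads, and the weights were lowest for KO and WT replicate 3.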
